A study of Homo sapiens with 12 samples.

Results

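Named long noncoding and antisense RNAs were followed in breast cancer tissue that had been cultured beside cardiac tissue, beside hepatic tissue or alone. The members were the genes whose symbol begins with LINC or SNHG, begins with MIR and ends in HG, or ends in -AS and a number, together with MALAT1, NEAT1, GAS5, H19 and MEG3, if they reached 1 count per 1000000 counts of the library (CPM) in at least 4 of the 12 libraries. Of 58735 genes in the table, 3204 had such a symbol and 406 were members, all of which passed the low-count filter that left 17468 genes for testing. They comprised 224 antisense genes, 145 LINC genes, 18 small nucleolar RNA (snoRNA) host genes, 17 microRNA (miRNA) host genes and the nuclear RNAs MALAT1 and NEAT1. The rule went by symbol and not by gene type. By annotated type, 2 members were protein-coding, and 8, 2 and 1 were transcribed unprocessed, unitary and processed pseudogenes. H19 and MEG3 fell short of the threshold. The members were thus chosen by their CPM over the 12 libraries, whatever the group, so their presence is not a result, and no member reached 1 CPM in the libraries of 1 group only.

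The cancer tissue was made of GFP+ MDA-MB-231 cells, an established triple-negative breast cancer line, in fibrin gel under flow in a perfused culture plate, and was harvested on day 5 of culture, counted from cancer cell seeding. The cardiac co-culture shared the plate with cardiomyocytes derived from induced pluripotent stem cells mixed with 2% cardiac fibroblasts, the hepatic co-culture with HepG2 hepatoma cells mixed with 2% lung fibroblasts, and the monoculture with neither. Each group had 4 libraries of poly(A)-selected RNA, all from the 1 cancer line. The labels call them biological replicates without naming their cultures, so the spread behind each p-value is that between libraries and may be partly technical.

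Long noncoding RNAs are transcripts that are spliced and often polyadenylated like mRNAs but are not known to encode a conserved protein. Some act as RNA in the nucleus: NEAT1 builds the paraspeckle, a nuclear body that holds RNA-binding proteins, and MALAT1 sits in nuclear speckles beside splicing factors. Others are carriers: snoRNA host genes release snoRNAs, the guides of ribosomal RNA modification, from their introns, and miRNA host genes release the hairpins from which mature miRNAs are cut. Antisense genes run against a protein-coding gene, and many begin at its promoter on the opposite strand.

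Mature miRNAs were not measured, since only the poly(A)-selected host transcripts were counted. The miRNAs that lie inside the host genes called in any comparison show what those transcripts could carry, and 1 arm of 10 of these miRNAs is given from RefSeq (GRCh38.p14), 5′ to 3′, with the seed (bases 2 to 8) in capitals.
hsa-miR-100-5p: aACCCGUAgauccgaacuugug
hsa-let-7a-5p: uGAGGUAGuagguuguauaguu
hsa-miR-125b-5p: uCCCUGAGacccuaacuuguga
hsa-miR-22-3p: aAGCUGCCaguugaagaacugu
hsa-miR-29b-3p: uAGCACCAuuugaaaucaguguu
hsa-miR-29c-3p: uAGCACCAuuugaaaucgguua
hsa-miR-221-3p: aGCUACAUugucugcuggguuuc
hsa-miR-222-3p: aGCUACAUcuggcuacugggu
hsa-miR-210-3p: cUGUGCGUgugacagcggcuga
hsa-miR-146a-5p: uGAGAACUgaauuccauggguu
The first 3 lie inside MIR100HG on the minus strand of chromosome 11, from miR-125b-5p at chr11:122099809-122099830 through let-7a-5p at chr11:122146568-122146589 to miR-100-5p at chr11:122152275-122152296, and have different seeds. miR-29b-3p and miR-29c-3p share the seed AGCACCA and both lie inside MIR29B2CHG. miR-221-3p and miR-222-3p share the seed GCUACAU and both lie inside MIR222HG. miR-22-3p lies inside MIR22HG, miR-210-3p inside MIR210HG and miR-146a-5p inside MIR3142HG. Other members hold further hairpins of miR-29b and let-7a. MIR29B1 lies inside the LINC-PINT gene that was called lower in the cardiac co-culture, and MIRLET7A3 inside MIRLET7BHG.

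Several antisense genes start almost back to back with their partner, and the DNA between the starts then lies directly upstream of both. It is given for 3 of those named below because they went different ways relative to their partners: TPT1-AS1 rose with TPT1, RNASEH1-AS1 fell with RNASEH1, and SUCLG2-AS1 fell while SUCLG2 rose, all in the hepatic co-culture against monoculture. The sequences are from RefSeq (GRCh38.p14), 5′ to 3′ in the direction of the antisense gene, and capitals mark the stretch from the start of the partner to the start of the antisense gene, with 20 transcribed bases in lower case on either side.
TPT1-AS1 and TPT1, chr13:45341163-45341365, plus strand: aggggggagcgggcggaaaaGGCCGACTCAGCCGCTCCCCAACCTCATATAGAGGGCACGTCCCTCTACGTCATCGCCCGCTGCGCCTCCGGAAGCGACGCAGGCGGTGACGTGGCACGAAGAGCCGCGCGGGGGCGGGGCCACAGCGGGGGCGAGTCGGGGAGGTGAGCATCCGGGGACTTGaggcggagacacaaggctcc
RNASEH1-AS1 and RNASEH1, chr2:3558313-3558406, plus strand: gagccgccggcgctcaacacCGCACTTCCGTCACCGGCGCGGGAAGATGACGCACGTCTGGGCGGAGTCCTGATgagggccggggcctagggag
SUCLG2-AS1 and SUCLG2, chr3:67654592-67654717, plus strand: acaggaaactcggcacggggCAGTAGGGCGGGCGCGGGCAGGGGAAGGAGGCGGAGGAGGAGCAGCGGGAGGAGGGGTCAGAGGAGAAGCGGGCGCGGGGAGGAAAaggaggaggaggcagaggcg
The RefSeq starts are 162, 53 and 85 bp apart for TPT1-AS1, RNASEH1-AS1 and SUCLG2-AS1. In GENCODE 29, which gives the coordinates and arrangements used for the counts here, the same starts are 25, 124 and 83 bp apart and the first 2 pairs overlap at their 5′ ends.

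The libraries held 26.2 to 42.4 M counts each, where M stands for 1000000. The 11 hepatocyte markers summed to 69.4 to 95.7 CPM in cardiac, 34.9 to 58.5 in hepatic and 42.0 to 74.4 in monoculture libraries. In each group 1 of 11 genes was above 1 CPM, and APOA2 was at 0 in all. Albumin (ALB) had 0 to 6 counts in hepatic libraries against 0 to 14 in monoculture libraries. AFP went the other way, with 0, 13, 14 and 6 counts in hepatic and 11, 1, 1 and 0 in monoculture libraries. TTR and AHSG were at 0 in monoculture but not in hepatic libraries. Cardiomyocyte markers summed to 1.36 to 4.45 CPM in cardiac, 0.847 to 2.10 in hepatic and 2.47 to 3.23 in monoculture libraries. Of these, MYH6 had 21 counts in cardiac replicate 4 and 0 in every other library. TNNT2 had 2 counts in cardiac replicate 4 and 0 to 4 in monoculture libraries. The 10 fibroblast markers summed to 12.3 to 13.2 CPM in cardiac, 11.7 to 23.9 in hepatic and 9.91 to 16.7 in monoculture libraries, with POSTN and THY1 at 0 throughout. The 10 markers of the cancer line summed to 4390 to 4567 CPM in cardiac, 4798 to 5047 in hepatic and 4458 to 4706 in monoculture libraries. On the first principal component (28.5% of the variance) cardiac replicate 4 stood at 24.9, within the monoculture range of 22.3 to 51.1, while the other cardiac libraries lay between -16.3 and -6.79.

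Members were mostly scarce. Their median level was 2.90 CPM after TMM scaling, the scaling of library sizes used for every CPM level from here on, and 72 of 406 reached a mean of 10 CPM. The 5 highest by mean CPM were NEAT1, FGD5-AS1, MALAT1, OIP5-AS1 and LRRC75A-AS1. Per kilobase of exon the order among the abundant ones changed: FGD5-AS1 had 49.8, LRRC75A-AS1 43.5, GAS5 33.7, SNHG5 32.9, MALAT1 26.3, OIP5-AS1 16.7 and NEAT1 12.1 CPM per kb. The divisor was the joined length of all annotated exons, 22767 bp for NEAT1 and 3631 bp for GAS5. Forms that poly(A) selection misses add to that length, so the order depends on the annotation. All members together took 0.402 ± 0.016% of the counts in cardiac, 0.436 ± 0.019% in hepatic and 0.380 ± 0.005% in monoculture libraries (SD, n = 4 each). Hepatic libraries ranged from 0.419 to 0.462% and did not overlap the monoculture range of 0.373 to 0.385%, while cardiac libraries, at 0.380 to 0.415%, did. In bulk RNA a change in the number of cells of a kind and a change in RNA per cell cannot be told apart.

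Against monoculture, 99 of 406 members (24.4%) passed the edgeR test in the hepatic co-culture, 76 higher and 23 lower, beside 28.0% of all tested genes, of which 14.4% were higher and 13.6% lower. Higher calls made up 51.5% of those over all genes, and 59.9% with upper-quartile scaling, which called 84 members higher and 20 lower. The median log2 fold change of members was 0.14 beside 0.01 over all tested genes. Groups did not overlap for 98 members (73 higher and 25 lower), beside 30.5% of all genes (15.1% higher and 15.4% lower), and 37 members (9.11%) were called with at least a 2-fold change, beside 4.57%. In the cardiac co-culture 20 members (4.93%) were called against monoculture, 17 higher and 3 lower, beside 8.26% of all genes with 4.93% higher and 3.33% lower. Of the calls over all genes in that comparison 59.7% were higher, and 72.2% with upper-quartile scaling. Groups did not overlap there for 39 members, 33 higher and 6 lower, beside 15.2% of genes with 7.77% higher and 7.47% lower, and 7 members were called with at least a 2-fold change, beside 0.853% of genes. Cardiac against hepatic co-culture called 16 members (3.94%), 7 higher and 9 lower, beside 6.18% of all genes with 3.27% higher and 2.91% lower. Groups did not overlap for 45 members, 21 higher and 24 lower, beside 11.9% of genes with 6.0% higher and 5.92% lower, and 2 members were called with at least a 2-fold change, beside 1.13%. The hepatic and cardiac comparisons share the monoculture libraries. The cardiac count against monoculture depended on single libraries: it was 47 without cardiac replicate 4, 9, 4 and 7 without cardiac replicates 1, 2 and 3, and 9, 5 and 6 without monoculture replicates 1, 3 and 4. Cardiac against hepatic calls numbered 10 without hepatic replicate 3, hepatic replicate 4 or cardiac replicate 3. Calls over all tested genes moved too. In cardiac co-culture against monoculture they went from 1443 of 17468 to 3378 of 17726 without cardiac replicate 4. Without cardiac replicate 2 they numbered 263 of 17968. Cardiac against hepatic, they went from 1080 to 676 without hepatic replicate 3, 792 without hepatic replicate 4 and 731 without cardiac replicate 3.

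**Figure D1:**
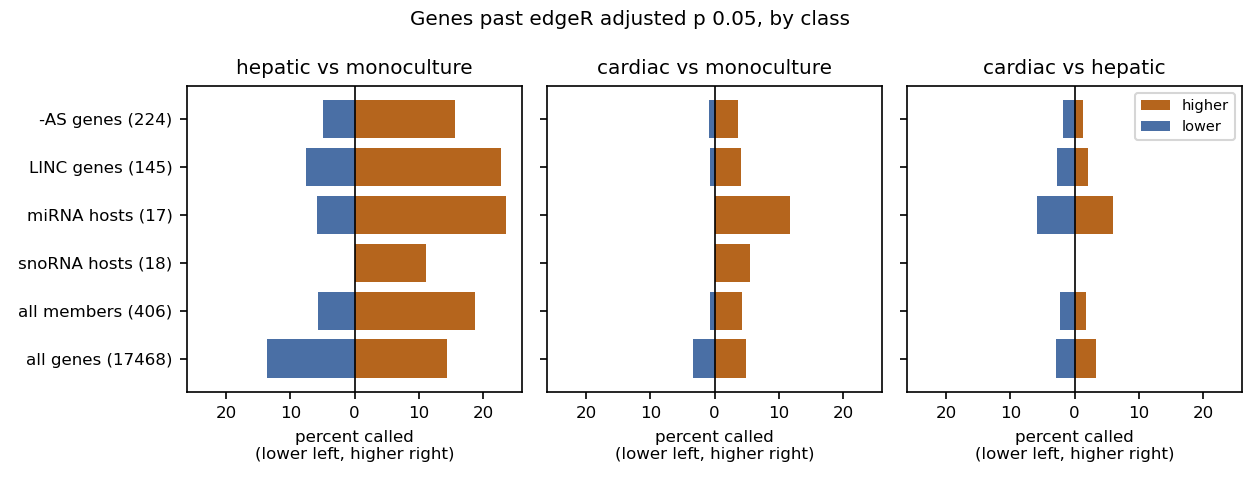
Percent of genes called higher (right of 0) or lower (left of 0) at an edgeR adjusted p under 0.05, for 4 classes of members, all 406 members and all 17468 tested genes, in each comparison. Members called in the hepatic co-culture against monoculture were mostly higher (76 of 99), while 51.5% of the calls over all genes were higher.

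Both nuclear RNAs rose in the hepatic co-culture. NEAT1 (chr11:65422774-65445540, plus strand, GRCh38) had 224, 279, 288 and 226 CPM in cardiac, 412, 297, 464 and 318 CPM in hepatic and 154, 191, 230 and 210 CPM in monoculture libraries. Every hepatic library lay above every monoculture and every cardiac library, and cardiac replicates 1 and 4 lay inside the monoculture range. NEAT1 rose by a log2 fold change of 0.93 ± 0.16 (SE, edgeR adjusted p = 0.0015) in hepatic co-culture against monoculture, whereas the cardiac difference of 0.37 ± 0.16 was not called (adjusted p = 0.167). Cardiac against hepatic, NEAT1 differed by -0.55 ± 0.16 (adjusted p = 0.067), a difference that passed with DESeq2, with the replicate block, or without hepatic replicate 2 or monoculture replicate 1.

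MALAT1 (chr11:65497688-65506516, plus strand), the neighbour of NEAT1 on chromosome 11, had 221, 230, 268 and 189 CPM in cardiac, 318, 231, 293 and 288 CPM in hepatic and 144, 227, 193 and 187 CPM in monoculture libraries. Hepatic replicate 2 and monoculture replicate 2 nearly touched, and the groups did not overlap. MALAT1 rose by 0.59 ± 0.14 on the log2 scale (edgeR adjusted p = 0.0076) in hepatic co-culture against monoculture and differed by 0.28 ± 0.14 in cardiac co-culture (adjusted p = 0.236). The mature end of MALAT1 and the long form of NEAT1 carry no poly(A) tail, so poly(A) selection captures them in part. Of 15 genes for paraspeckle proteins, the partners of NEAT1, none rose and 8 fell in hepatic co-culture against monoculture, with a median log2 fold change of -0.23, beside 14.4% of all genes higher and 13.6% lower. FAM98A fell by 0.51 ± 0.09 (adjusted p = 5.2e-04) and PSPC1 (paraspeckle component 1) by 0.47 ± 0.09 (adjusted p = 7.3e-04). In cardiac co-culture against monoculture 3 of 15 fell, beside 3.33% of all genes, PSPC1 among them by 0.39 ± 0.09 (adjusted p = 0.0145), a call lost without cardiac replicates 2 or 3 or monoculture replicate 3.

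**Figure D2:**
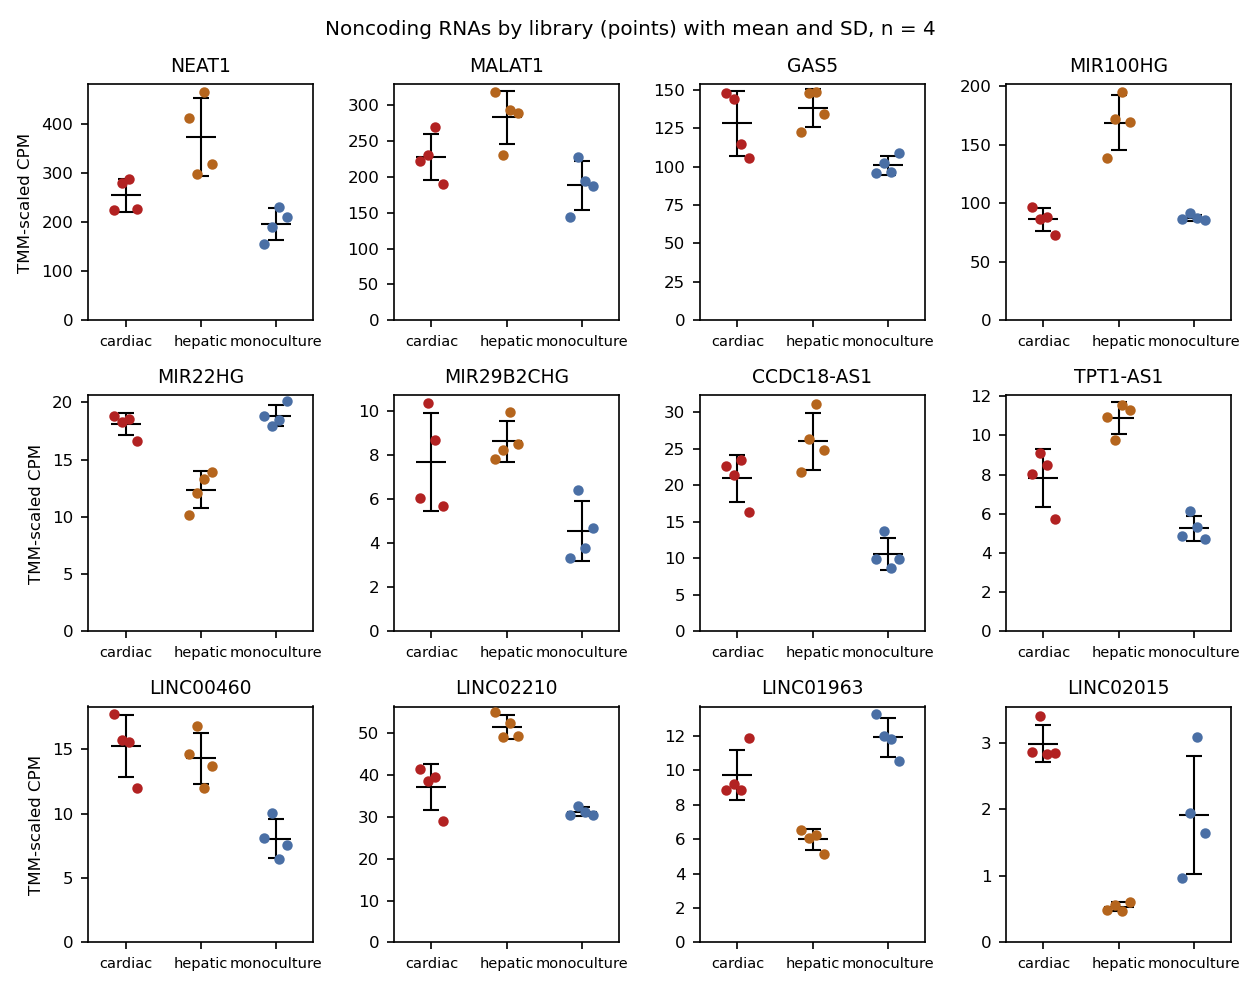
TMM-scaled CPM of 12 named noncoding RNAs in each library (points; cardiac, hepatic and monoculture from left to right), with the mean and SD of 4 libraries (black). All hepatic libraries of NEAT1, MIR100HG and LINC02210 lie above the other groups, and all of MIR22HG, LINC01963 and LINC02015 below them.

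Among the 18 snoRNA host genes, 2 rose and none fell in hepatic co-culture against monoculture (11.1%, beside 28.0% of all genes), and the median log2 fold change was 0.00. GAS5 (chr1:173863900-173868882, minus strand), whose spliced RNA is broken down by nonsense-mediated decay when it is translated, had 148, 144, 115 and 106 CPM in cardiac, 122, 148, 148 and 134 CPM in hepatic and 95.6, 102, 96.6 and 109 CPM in monoculture libraries. All hepatic libraries exceeded all monoculture libraries, and cardiac replicate 4 fell within the monoculture range. GAS5 rose by 0.45 ± 0.10 (edgeR adjusted p = 0.0024) in the hepatic and by 0.34 ± 0.10 (adjusted p = 0.039) in the cardiac co-culture. SNHG5, host of SNORD50B, had 105, 96.0, 88.5 and 70.3 CPM in cardiac, 101, 105, 95.5 and 107 CPM in hepatic and 89.4, 88.2, 79.2 and 83.1 CPM in monoculture libraries, and rose by 0.26 ± 0.09 (adjusted p = 0.040) in the hepatic co-culture. That SNHG5 call was lost without hepatic replicates 1, 2 or 4, cardiac replicate 3 or any 1 monoculture library. The remaining snoRNA hosts were not called in any of the 3 comparisons. Their log2 fold changes in hepatic co-culture against monoculture ran from -0.87 for SNHG26 to 0.91 for SNHG28, the scarcest members of the class.

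LRRC75A-AS1 and EPB41L4A-AS1, antisense genes by name, hold annotated snoRNAs as well. LRRC75A-AS1, now called SNHG29 and holding SNORD49A, SNORD49B and SNORD65, had 179, 192, 167 and 144 CPM in cardiac, 199, 174, 182 and 170 CPM in hepatic and 138, 146, 133 and 136 CPM in monoculture libraries. It rose by 0.39 ± 0.08 (edgeR adjusted p = 0.0014) in the hepatic and by 0.30 ± 0.08 (adjusted p = 0.027) in the cardiac co-culture, where replicate 4 overlapped the monoculture. EPB41L4A-AS1, which holds SNORA13, rose by 0.58 ± 0.14 (adjusted p = 0.0055) in the hepatic and by 0.61 ± 0.14 (adjusted p = 0.018) in the cardiac co-culture, while its partner EPB41L4A differed by -0.32 ± 0.26 and -0.25 ± 0.26 in the same comparisons (adjusted p = 0.383 and 0.580).

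Genes of the ribosome, the product that snoRNAs help to make, are given for context. Of 73 cytosolic ribosomal protein genes 58 rose and none fell in hepatic co-culture against monoculture, with a median log2 fold change of 0.35, and 7 rose in the cardiac co-culture. Beside these and the following lists, 14.4% of all tested genes were higher and 13.6% lower in hepatic co-culture against monoculture, and 4.93% were higher in the cardiac co-culture. RPS4X, a small-subunit protein, rose by 0.54 ± 0.08 (edgeR adjusted p = 1.8e-04) in the hepatic co-culture. Of 15 genes for proteins that assemble on snoRNAs, 1 rose and 8 fell, among them GAR1 of the box H/ACA particle, by 0.68 ± 0.12 (adjusted p = 4.0e-04). Of 15 nonsense-mediated decay genes 1 rose and 8 fell, and EIF4A3, a core protein of the exon junction complex, fell by 0.42 ± 0.06 (adjusted p = 1.2e-04). Cardiac against hepatic, 4 of these 15 decay genes were higher and none lower, beside 3.27% and 2.91% of all genes.

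**Figure D3:**
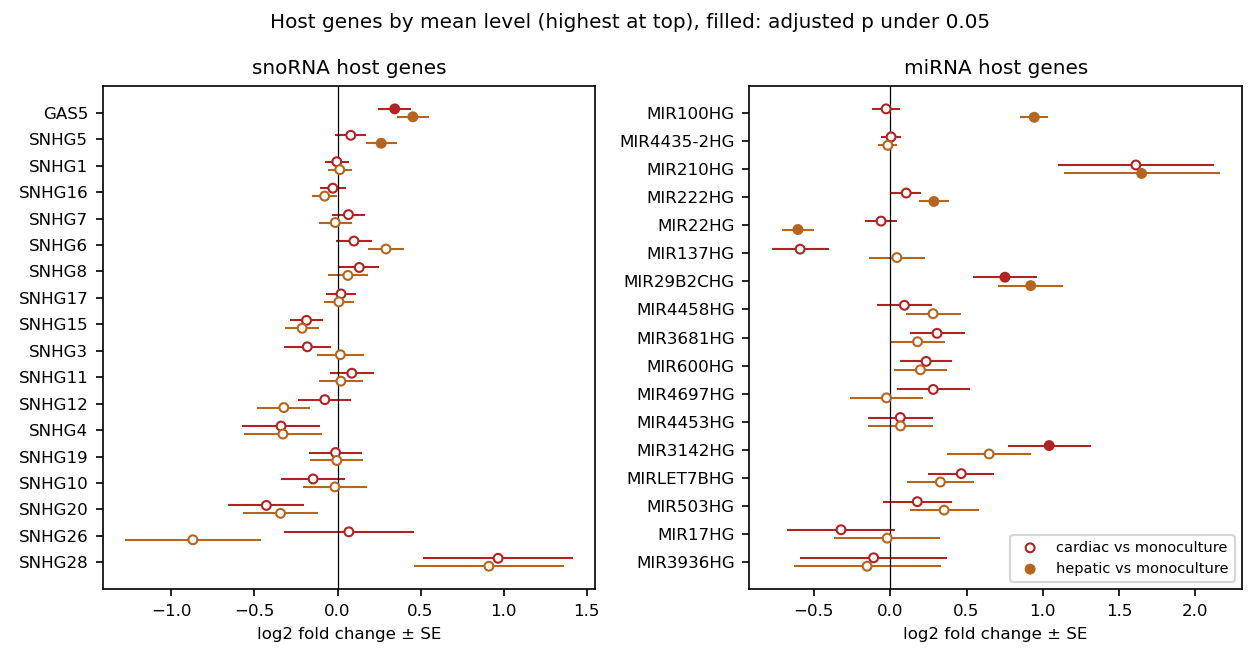
Log2 fold change with SE for the 18 snoRNA host genes (left) and 17 miRNA host genes (right), ordered by mean level, in cardiac (red) and hepatic co-culture (brown) against monoculture. Filled points are called, and MIR100HG and MIR22HG move in opposite directions in the hepatic co-culture.

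Of the 17 miRNA host genes, 4 rose and 1 fell in hepatic co-culture against monoculture (29.4% called, beside 28.0% of all genes). MIR100HG (chr11:122028327-122556721, minus strand), host of miR-100, let-7a-2 and miR-125b-1, had 96.7, 86.8, 88.6 and 73.0 CPM in cardiac, 139, 172, 196 and 170 CPM in hepatic and 86.9, 91.4, 87.5 and 85.5 CPM in monoculture libraries. The lowest hepatic library stood well above all others, and the cardiac libraries straddled the monoculture ones. MIR100HG rose by 0.94 ± 0.09 (edgeR adjusted p = 1.7e-06) against monoculture and was lower by a log2 fold change of -0.97 ± 0.09 in cardiac against hepatic co-culture (adjusted p = 2.2e-06), while cardiac against monoculture gave -0.03 ± 0.09 (adjusted p = 0.893).

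MIR22HG (chr17:1711493-1717174, minus strand) showed the reverse order, with 18.8, 18.3, 18.5 and 16.7 CPM in cardiac, 10.2, 12.1, 13.3 and 13.9 CPM in hepatic and 18.8, 17.9, 18.5 and 20.1 CPM in monoculture libraries. It fell by 0.60 ± 0.11 (edgeR adjusted p = 4.8e-04) in hepatic co-culture against monoculture and was higher by 0.54 ± 0.11 in cardiac against hepatic co-culture (adjusted p = 0.0041). No hepatic library reached the range of either other group.

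MIR29B2CHG, host of miR-29b-2 and miR-29c, had 6.05, 10.4, 8.70 and 5.68 CPM in cardiac, 7.83, 8.24, 9.97 and 8.49 CPM in hepatic and 3.32, 6.43, 3.79 and 4.69 CPM in monoculture libraries. It rose by 0.92 ± 0.21 (edgeR adjusted p = 0.0035) in the hepatic and by 0.75 ± 0.21 (adjusted p = 0.037) in the cardiac co-culture, and monoculture replicate 2 lay among the cardiac libraries. MIR210HG, host of the hypoxia-responsive miR-210, had 34.9, 39.3, 33.6 and 16.8 CPM in cardiac, 28.9, 28.3, 34.0 and 36.5 CPM in hepatic and 11.2, 19.04, 2.26 and 8.33 CPM in monoculture libraries. The spread among monoculture libraries was wide, and cardiac replicate 4 fell inside it. MIR210HG rose by 1.65 ± 0.51 in the hepatic co-culture (adjusted p = 0.039), a call lost in 12 of 18 alternatives, among them leaving out any 1 hepatic library, monoculture replicates 1 or 4 or cardiac replicates 1, 2 or 3, and differed by 1.61 ± 0.51 in the cardiac co-culture (adjusted p = 0.084).

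MIR222HG, host of miR-221 and miR-222, averaged 24.1 ± 1.34 CPM in hepatic and 19.8 ± 1.84 CPM in monoculture libraries (SD, n = 4 each) and rose by 0.29 ± 0.10 (edgeR adjusted p = 0.038). Its call was lost without hepatic replicates 3 or 4, cardiac replicate 3 or monoculture replicates 2, 3 or 4. MIR3142HG, host of miR-3142 and miR-146a, had 4.25, 5.55, 2.96 and 2.71 CPM in cardiac against 1.58, 2.35, 1.85 and 1.69 CPM in monoculture libraries and rose by 1.04 ± 0.27 (adjusted p = 0.027), while hepatic co-culture gave 0.65 ± 0.27 against monoculture (adjusted p = 0.085). The other 11 miRNA hosts were called in none of the comparisons. Of 16 genes of miRNA processing, 2 rose and 6 fell in hepatic co-culture against monoculture, beside 14.4% of all genes higher and 13.6% lower, with XPO5 (exportin 5, which carries hairpins out of the nucleus) down by 0.49 ± 0.08 (log2 fold change -0.49, adjusted p = 3.4e-04) and DROSHA, the nuclear enzyme that cuts them free, at -0.37 ± 0.08 (adjusted p = 0.0014).

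Of 224 antisense genes 35 were higher and 11 lower (20.5% called, beside 28.0% of all genes) in hepatic co-culture against monoculture. In cardiac co-culture 8 were higher and 2 lower against monoculture (4.46%, beside 8.26%), and 3 were higher and 4 lower against hepatic co-culture (3.12%, beside 6.18%). CCDC18-AS1 (chr1:93262186-93346025, minus strand) had 22.7, 21.4, 23.5 and 16.3 CPM in cardiac, 21.8, 26.4, 31.2 and 24.8 CPM in hepatic and 9.91, 13.8, 8.72 and 9.91 CPM in monoculture libraries. It rose by 1.30 ± 0.15 (edgeR adjusted p = 1.1e-05) in the hepatic and by 0.98 ± 0.15 (adjusted p = 0.0029) in the cardiac co-culture, with no overlap with monoculture in either. TPT1-AS1 (chr13:45341345-45393413, plus strand) had 8.03, 9.11, 8.52 and 5.74 CPM in cardiac, 10.9, 9.76, 11.5 and 11.3 CPM in hepatic and 4.87, 6.13, 5.33 and 4.72 CPM in monoculture libraries, and rose by 1.05 ± 0.15 (adjusted p = 8.5e-05) and 0.57 ± 0.15 (adjusted p = 0.030) in the hepatic and the cardiac co-culture against monoculture.

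VAC14-AS1 averaged 2.02 ± 0.95 CPM in cardiac, 3.32 ± 0.35 CPM in hepatic and 0.811 ± 0.441 CPM in monoculture libraries and rose by 2.04 ± 0.36 (edgeR adjusted p = 5.2e-04) in the hepatic and 1.32 ± 0.37 (adjusted p = 0.035) in the cardiac co-culture. ADIRF-AS1 rose by 1.26 ± 0.22 (adjusted p = 3.6e-04) and DLGAP1-AS2 by 1.01 ± 0.17 (adjusted p = 3.0e-04) in the hepatic co-culture. ZMIZ1-AS1 averaged 8.46 ± 2.43 CPM in cardiac, 6.09 ± 1.06 in hepatic and 3.02 ± 0.43 in monoculture libraries, and STARD4-AS1 3.47 ± 1.36, 3.06 ± 0.28 and 1.29 ± 0.34 CPM in the same order. In cardiac co-culture they rose by 1.48 ± 0.20 (adjusted p = 0.0016) and 1.43 ± 0.28 (adjusted p = 0.0084). Both rose in the hepatic co-culture as well, by 1.01 (adjusted p = 0.0014) and 1.25 (adjusted p = 0.0031).

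LYRM4-AS1 fell in the hepatic co-culture, averaging 4.18 ± 0.82 CPM in cardiac, 2.39 ± 0.39 CPM in hepatic and 5.79 ± 1.25 CPM in monoculture libraries, a log2 fold change of -1.27 ± 0.21 in hepatic co-culture against monoculture (edgeR adjusted p = 2.3e-04). VPS9D1-AS1 fell by 0.85 ± 0.17 (adjusted p = 0.0013), SUCLG2-AS1 by 0.81 ± 0.20 (adjusted p = 0.0054), RNASEH1-AS1 by 0.72 ± 0.15 (adjusted p = 0.0021) and FLG-AS1 by 0.50 ± 0.12 (adjusted p = 0.0058). RNASEH1-AS1 and FBXL19-AS1 fell in the cardiac co-culture as well, by 0.52 ± 0.15 (adjusted p = 0.045) and 0.94 ± 0.28 (adjusted p = 0.046). Cardiac against hepatic, VPS9D1-AS1 was higher by 0.77 ± 0.17 (adjusted p = 0.0095), LYRM4-AS1 by 0.80 ± 0.21 (adjusted p = 0.025) and FLG-AS1 by 0.48 ± 0.12 (adjusted p = 0.025), and SERTAD4-AS1 lower at -0.77 ± 0.17 (adjusted p = 0.0083), ADIRF-AS1 at -0.87 ± 0.21 (adjusted p = 0.019), DLGAP1-AS2 at -0.61 ± 0.17 (adjusted p = 0.038) and ELF3-AS1 at -0.86 ± 0.25 (adjusted p = 0.043). The most abundant antisense gene, FGD5-AS1, changed little, with 254, 250, 249 and 264 CPM in cardiac, 224, 242, 242 and 241 CPM in hepatic and 287, 265, 281 and 269 CPM in monoculture libraries and a fall of 0.22 ± 0.06 in the hepatic co-culture (adjusted p = 0.010). OIP5-AS1, the human counterpart of the cyrano RNA that in mouse directs decay of miR-7, averaged 206 ± 20.6 CPM in cardiac, 229 ± 12.3 in hepatic and 198 ± 16.3 in monoculture libraries and rose by 0.21 ± 0.08 in the hepatic co-culture (adjusted p = 0.047), a call lost without hepatic replicates 1, 3 or 4, cardiac replicates 1 or 3 or monoculture replicates 2, 3 or 4.

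Of the 224 antisense genes 221 had a partner of the matching symbol in the annotation, and in 210 pairs the partner was tested. By position, 93 of the 221 overlapped the partner at the 5′ ends, 45 at the 3′ ends, 34 diverged without overlap, 26 lay inside the partner, 21 contained it and 2 converged without overlap. Exons of opposite strands overlapped in 153 pairs, and 235 of all 406 members overlapped some exon of the opposite strand. The strand setting of the counting is not known, so where exons overlap, reads of the 2 genes cannot be told apart.

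In hepatic co-culture against monoculture 40 antisense genes (19.05%) and 74 partners (35.24%) of the 210 pairs were called, beside 28.0% of all genes. Both sides were called in 17 pairs, and how many such pairs these shares alone would give was not tested. Of these 17 pairs 12 moved the same way and 5 opposite ways, and 23 antisense genes were called without their partner. Across the 210 pairs 57.1% had the same sign and the log2 fold changes had a Pearson's r of 0.27, a description over pairs that share libraries and, where exons overlap, possibly reads. For 145 tested pairs with overlapping exons r was 0.29 and for 65 without overlap 0.22. In cardiac co-culture against monoculture 10 antisense genes (4.76%) and 14 partners (6.67%) were called, beside 8.26% of all genes. There 2 pairs were called on both sides, and r was 0.24. In cardiac against hepatic co-culture 5 antisense genes (2.38%) and 18 partners (8.57%) were called, beside 6.18% of all genes. Both sides were called in 1 pair, and r was 0.23.

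**Figure D4:**
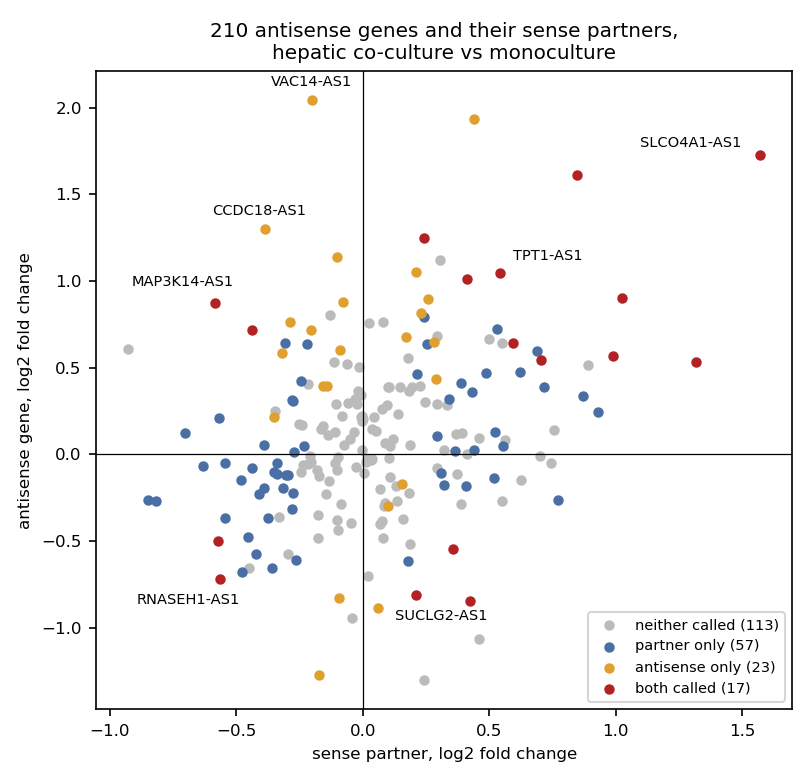
Log2 fold change in hepatic co-culture against monoculture of 210 antisense genes (vertical axis) against their sense partners (horizontal axis), coloured by which side was called. Of the 17 pairs called on both sides 12 lie in the quadrants of equal sign, and 23 antisense genes were called alone.

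TPT1, the abundant translationally controlled tumor protein gene, averaged 684 ± 145 CPM in cardiac, 724 ± 55.5 CPM in hepatic and 496 ± 38.9 CPM in monoculture libraries and rose with TPT1-AS1, by 0.54 ± 0.13 (edgeR adjusted p = 0.0050) in the hepatic and 0.46 ± 0.13 (adjusted p = 0.036) in the cardiac co-culture. RNASEH1, a ribonuclease that removes RNA from RNA-DNA hybrids, averaged 11.8 ± 1.69, 9.30 ± 0.98 and 13.7 ± 1.86 CPM in the same order of groups and fell by 0.56 ± 0.13 (adjusted p = 0.0046) in the hepatic co-culture. FLG fell with FLG-AS1, which contains it, by 0.57 ± 0.15 (adjusted p = 0.010). Zinc-finger coregulator gene ZMIZ1 and its divergent neighbour ZMIZ1-AS1 rose in both co-cultures. ZMIZ1 rose by 0.46 ± 0.13 (adjusted p = 0.0495) in the cardiac and by 0.41 (adjusted p = 0.036) in the hepatic co-culture. The hepatic call of ZMIZ1 was lost without hepatic replicates 1 or 3 or monoculture replicates 1, 3 or 4. Further pairs that rose on both sides, named after their values were seen, were SLCO4A1-AS1 at 1.73 with SLCO4A1 at 1.57, SOX9-AS1 at 1.61 with SOX9 at 0.85 and VIM-AS1 at 0.64 with VIM at 0.59, all log2 fold changes in hepatic co-culture against monoculture. Exons of the partner overlap 22.6% of the exon length of SLCO4A1-AS1 and 32.2% of that of VIM-AS1, so reads may be shared there. Exons of SOX9-AS1 and SOX9 do not overlap.

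The 5 pairs that moved opposite ways were likewise singled out from their values. SUCLG2-AS1 fell by 0.81 while SUCLG2, a subunit of the mitochondrial enzyme succinyl-CoA ligase, rose by 0.21 ± 0.07 (edgeR adjusted p = 0.041), and the exons of this divergent pair do not overlap. The SUCLG2 call was lost without hepatic replicates 2, 3 or 4, cardiac replicates 2 or 3 or any 1 monoculture library. SCAMP1-AS1 fell by 0.55 while SCAMP1 rose by 0.36, and PAXIP1-AS1 rose by 0.72 while PAXIP1 fell by 0.44, both divergent pairs as well. SCAMP1-AS1 lost its call without hepatic replicates 3 or 4 or monoculture replicates 1 or 4. VPS9D1-AS1, which lies inside VPS9D1, fell by 0.85 while VPS9D1 rose by 0.43 (a call of VPS9D1 lost without monoculture replicate 1), and MAP3K14-AS1 rose by 0.87 while MAP3K14 fell by 0.59. Of the genes called without their partner, CCDC18-AS1 rose while CCDC18 was at -0.39 ± 0.19 (adjusted p = 0.142), VAC14-AS1 rose while VAC14 was at -0.20 ± 0.08 (adjusted p = 0.061), and LYRM4-AS1 fell while LYRM4 was at -0.17 ± 0.10 (adjusted p = 0.218). The partners of FGD5-AS1, ADIRF-AS1 and DLGAP1-AS2 were not tested: FGD5 averaged 0.015 CPM in cardiac, 0.019 in hepatic and 0.012 in monoculture libraries, DLGAP1 averaged 0.014, 0.228 and 0.099 CPM in the same order, and ADIRF had 0 counts in all.

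LINC genes gave 33 higher and 11 lower calls of 145 (30.3%, beside 28.0% of all genes) in hepatic co-culture against monoculture. Cardiac co-culture gave 6 higher and 1 lower against monoculture (4.83%, beside 8.26%) and 3 higher and 4 lower against hepatic co-culture (4.83%, beside 6.18%). LINC02210 (chr17:45620328-45655156, plus strand) had 41.4, 38.5, 39.5 and 29 CPM in cardiac, 55.0, 49.1, 52.3 and 49.4 CPM in hepatic and 30.4, 32.7, 31.2 and 30.5 CPM in monoculture libraries, so that hepatic libraries stood above both other groups. It rose by 0.72 ± 0.09 (edgeR adjusted p = 3.1e-05) in hepatic co-culture against monoculture and was lower at -0.47 ± 0.09 in cardiac against hepatic co-culture (adjusted p = 0.0045).

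LINC00460 (chr13:106374477-106384315, plus strand) had 17.8, 15.8, 15.6 and 12.0 CPM in cardiac, 14.7, 16.8, 12.0 and 13.7 CPM in hepatic and 8.11, 10.1, 6.51 and 7.55 CPM in monoculture libraries. Both co-cultures lay above the monoculture with no overlap, at 0.92 ± 0.15 (edgeR adjusted p = 0.0038) in the cardiac and 0.83 ± 0.15 (adjusted p = 6.0e-04) in the hepatic co-culture. LINC02320 rose by 1.03 ± 0.24 (adjusted p = 0.016) and 1.39 ± 0.23 (adjusted p = 3.1e-04), and LINC02577 by 1.20 ± 0.29 (adjusted p = 0.019) and 1.30 ± 0.29 (adjusted p = 0.0027), in the cardiac and the hepatic co-culture. LINC00963 rose by 0.43 ± 0.10 in both (adjusted p = 0.017 in the cardiac and 0.0037 in the hepatic co-culture), and LINC01006 rose by 0.47 ± 0.12 in the cardiac co-culture (adjusted p = 0.023) and was at 0.22 ± 0.12 in the hepatic one (adjusted p = 0.179). LINC00589 averaged 1.21 ± 0.58 CPM in cardiac, 2.52 ± 0.39 in hepatic and 0.568 ± 0.233 in monoculture libraries and rose by 2.14 ± 0.36 (adjusted p = 3.2e-04) in the hepatic co-culture, as did LINC00702 by 0.85 ± 0.16 (adjusted p = 8.1e-04).

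LINC01963 showed the opposite order, with 8.87, 9.22, 8.85 and 11.9 CPM in cardiac, 6.53, 6.05, 6.23 and 5.13 CPM in hepatic and 13.3, 12.0, 11.8 and 10.6 CPM in monoculture libraries, and fell by 0.99 ± 0.14 (edgeR adjusted p = 5.3e-05) in the hepatic co-culture. LINC02015 had 2.86, 3.40, 2.84 and 2.84 CPM in cardiac, 0.494, 0.567, 0.480 and 0.612 CPM in hepatic and 0.969, 1.94, 3.09 and 1.64 CPM in monoculture libraries. Its hepatic libraries lay below all others, with a log2 fold change of -1.83 ± 0.32 against monoculture (adjusted p = 4.3e-04) and of 2.46 ± 0.32 in cardiac against hepatic co-culture (adjusted p = 7.3e-05). LINC00680 fell by 1.07 ± 0.19 (adjusted p = 5.2e-04), LINC01106 by 0.82 ± 0.19 (adjusted p = 0.0034) and LINC00886 by 1.21 ± 0.29 (adjusted p = 0.0051) in hepatic co-culture against monoculture.

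Cardiac against hepatic, LINC01963 was higher by 0.70 ± 0.14 (edgeR adjusted p = 0.0041) and LINC00680 by 0.88 ± 0.19 (adjusted p = 0.0086). LINC00355 was lower at -0.98 ± 0.24 (adjusted p = 0.020), LINC02009 at -1.17 ± 0.30 (adjusted p = 0.022) and LINC01578 at -0.49 ± 0.13 (adjusted p = 0.029). LINC01578, now called CHASERR, lies beside CHD2, whose expression it restrains in mouse. It had 37.2, 36.9, 27.1 and 22.2 CPM in cardiac, 44.6, 39.9, 44.9 and 43.2 CPM in hepatic and 31.4, 30.6, 27.9 and 29.3 CPM in monoculture libraries. The symbol LINC-PINT, a transcript induced by p53 in mouse, names a pair of gene identifiers on chromosome 7. The one at chr7:130876809-130913310 averaged 2.55 ± 0.52 CPM in cardiac, 3.30 ± 0.46 in hepatic and 4.34 ± 0.63 in monoculture libraries and fell by 0.77 ± 0.20 in the cardiac co-culture (adjusted p = 0.027), and the one at chr7:130938963-131110176 differed by 0.03 ± 0.26 (adjusted p = 0.968).

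Single libraries decided many calls on named genes. In cardiac co-culture against monoculture ZMIZ1-AS1, CCDC18-AS1, STARD4-AS1 and LINC00460 kept their calls in all 18 alternatives, and each other member called there, GAS5, LRRC75A-AS1, EPB41L4A-AS1, MIR29B2CHG, MIR3142HG and TPT1-AS1 included, lost its call without cardiac replicate 2, as did the partners TPT1 and ZMIZ1. Cardiac against hepatic, MIR22HG, MIR100HG, VPS9D1-AS1, SERTAD4-AS1, LINC02015, LINC01963, LINC00680 and LINC02210 kept theirs, while, among other losses, ADIRF-AS1, DLGAP1-AS2, ELF3-AS1, LINC01578 and LYRM4-AS1 lost theirs without hepatic replicate 3, FLG-AS1 without hepatic replicate 4, LINC00355 without hepatic replicate 3 and LINC02009 without hepatic replicate 2. In hepatic co-culture against monoculture the members named above as called kept their calls in all 18 alternatives, except SNHG5, MIR210HG, MIR222HG, OIP5-AS1, SCAMP1-AS1, FBXL19-AS1 and LINC00355. FBXL19-AS1 lost its call there without hepatic replicates 2, 3 or 4 or monoculture replicates 1 or 3, and LINC00355 without hepatic replicates 1, 2 or 3 or monoculture replicates 1 or 2.

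The threshold cut through a continuum. By the fourth-highest library, SNHG28 (1.12 CPM), MIR3936HG (1.16), SEPSECS-AS1 (1.01) and LINC01004 (1.01) lay just inside, and SNHG21 (0.999), MIR646HG (0.942), ASMTL-AS1 (0.989) and LINC02588 (0.991) just outside. H19, an imprinted fetal transcript, had 30, 8, 2 and 6 counts in cardiac, 8, 4, 4 and 0 in hepatic and 0, 4, 0 and 0 in monoculture libraries, and MEG3, also imprinted, had 17 counts in hepatic replicate 2 and 0 in each other library. Both stayed under the filter and were not tested. Hepatic replicate 2, the deepest library at 42.4 M counts, also had the most unscaled counts of the fibroblast collagen genes COL1A1 and COL3A1. The other hepatic libraries held 26.2 to 30.0 M counts. COL1A1 had 528 counts there against 173 to 217 in the other hepatic libraries and 210 to 260 in monoculture libraries. For COL3A1 the counts were 44, 10 to 16 and 0 to 12 in the same order. The fibroblast markers POSTN and THY1 had 0 counts in every group. The part of other cells in these counts was not tested.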

How the data were processed

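RNA-seq of 12 libraries was used, deposited by the authors as raw counts of reads per Ensembl gene, not normalized. The submitters' processing notes name the build GRCh38 and, without roles, featureCounts 2.0.6, HISAT2 2.2.1 and DESeq2 1.42.0. The sources used here do not give the annotation release, the strand setting or the treatment of multiply matching reads, and the labels' protocols describe a stranded and an unstranded kit. Counts of gene families and overlapping genes are therefore uncertain. All 58735 identifiers were found in GENCODE 29, which gave symbols, positions and partners (the symbol without -AS and its number).

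Members were chosen on unscaled CPM, and the members and lists were chosen with earlier results of these data known. Genes passing filterByExpr (17468, 99.9% of counts) were tested with edgeR 4.0.16 (R 4.3.3), robust quasi-likelihood test, TMM scaling, 1 fit over 12 libraries with group as factor, two-sided, Benjamini-Hochberg adjustment over all tested genes, threshold 0.05. SE is the log2 fold change divided by the root of F. The fit was tested on simulated data. Named are MALAT1, NEAT1, GAS5, H19 and MEG3, called snoRNA hosts, up to 5 higher and 5 lower members per class and comparison by adjusted p, the 5 of highest mean CPM, partners of named antisense genes, members nearest the CPM threshold, and the best-called gene of each other list, with exceptions stated and 1 gene that this rule names not reported here. Alternatives were DESeq2 1.42.0, other scalings, no filter, 2 groups only, a replicate block, other membership rules and each library left out. Promoter windows of 300 bases were matched for 319 members and miRNAs for 17 of 17 hosts in RefSeq GRCh38.p14.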

Additional observations from a re-analysis of the deposited data

Results flagged for a closer look

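Several values stood apart from the other libraries of their group, by a gap test that flags about 1 in 20 groups by chance, in 5 of 141 groups checked. ELF3-AS1 had 1.39 CPM in monoculture replicate 4 against 2.42 to 2.63 CPM in the other monoculture libraries. FGD5-AS1 had 224 CPM in hepatic replicate 1, where the other hepatic libraries had 241 to 242 CPM. LINC-PINT (at chr7:130938963-131110176) had 1.76 CPM in hepatic replicate 1, below 3.66 to 4.06 CPM in the others. LINC01963 had 11.9 CPM in cardiac replicate 4 against 8.85 to 9.22 CPM, and LINC02015 had 3.40 CPM in cardiac replicate 2 against 2.84 to 2.86 CPM in the other cardiac libraries.

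Of the 16 members called cardiac against hepatic (3.94%, beside 6.18% of all genes), 5 had differences from monoculture of opposite sign in the co-cultures. None of these 5 was called in cardiac co-culture against monoculture. MIR100HG lay near 0 there (edgeR adjusted p = 0.893), so its sign carries no weight. In hepatic co-culture against monoculture MIR100HG, LINC00355 and LINC02015 were called. LINC02009 and ELF3-AS1 were called in neither comparison with monoculture. How many of all genes showed such a pattern was not counted. Cardiac against hepatic, the log2 fold change was -0.97 for MIR100HG, -1.17 for LINC02009, -0.98 for LINC00355, -0.86 for ELF3-AS1 and 2.46 for LINC02015. In cardiac and hepatic co-culture against monoculture the values were -0.03 and 0.94 for MIR100HG, -0.46 and 0.71 for LINC02009, -0.29 and 0.70 for LINC00355, -0.53 and 0.33 for ELF3-AS1, and 0.64 and -1.83 for LINC02015.

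H19 had 30 counts in cardiac replicate 1 and at most 4 in a monoculture library, and MEG3 had 17 counts in hepatic replicate 2 and 0 in the monoculture libraries, both outside the tested genes.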

How the results depend on the processing

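Leaving out 1 library gave 72 to 106 members called in hepatic co-culture against monoculture (56 to 80 higher, 16 to 26 lower), 4 to 47 in cardiac co-culture against monoculture (4 to 40 higher, 0 to 7 lower) and 10 to 21 in cardiac against hepatic co-culture (5 to 8 higher, 4 to 13 lower). Over all tested genes the same omissions gave 3660 to 5529, 263 to 3378 and 676 to 1269 calls in these comparisons. DESeq2 called 41 members (37 higher) in cardiac co-culture against monoculture and 32 (22 lower) in cardiac against hepatic co-culture. Of all 17468 genes it called 2372 and 1609. Without the low-count filter the counts were 31 (28 higher) in cardiac co-culture against monoculture and 15 lower in cardiac against hepatic co-culture. Of the 33284 genes then tested, 2219 and 1513 were called in these comparisons. After the data were seen 2 alternatives were added. Without members that overlap an opposite-strand exon, 171 members gave 50 calls (39 higher, 11 lower) in hepatic co-culture against monoculture, 9 (8 higher, 1 lower) in cardiac co-culture against monoculture and 10 (4 higher) in cardiac against hepatic co-culture. Fewer members were counted there. The full 406 members gave 99, 20 and 16 calls (24.4%, 4.93% and 3.94%) in these comparisons, beside 28.0%, 8.26% and 6.18% of all genes. Current gene symbols gave 491 members, 373 of them shared, and 12 higher calls in cardiac against hepatic co-culture. In the 18 alternatives run on them, no sign was reversed among the calls of named genes. The cause of these shifts was not tested.

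Deviations of log CPM from the group mean were correlated between libraries of different groups. Same-numbered libraries gave -0.08 to 0.11 and other-numbered ones -0.17 to 0.11, so numbers were not taken to pair cultures. With the replicate block 97, 18 and 16 members were called in the hepatic, the cardiac and the cardiac against hepatic comparison, with 1 lower in the second. Upper-quartile scaling shifted the median of all genes by at most 0.04. Depth limits members near 1 CPM.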
